A study of Mus musculus and Homo sapiens with 33 samples.

Results

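The genes described here encode the nuclear pore complex and the nuclear lamina with its membrane partners. They were taken by symbol from a fixed list of 42 genes, 28 of the pore and 14 of the lamina, among 38924 gene IDs in the count matrix. Syne1 is entered under 2 IDs, so the list matched 43 IDs. Of these, 40 had enough reads to be tested (25 pore and 15 lamina IDs), and Nup43, Nup62 and Nup133 were listed at 0 reads in all 6 libraries.

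Nuclear pores are channels through both membranes of the nuclear envelope. They are built from nucleoporins arranged in rings, with a central transport channel, filaments on the cytoplasmic side and a basket on the nuclear side. The lamina is a meshwork of lamin filaments beneath the inner membrane, tied to chromatin by LEM-domain proteins, BAF and the lamin B receptor, and to the cytoskeleton by the LINC complex of SUN and nesprin proteins. In animal cells the envelope, the lamina and the pores are taken apart when mitosis begins and rebuilt as it ends.

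RNA-seq was done on KPL cells, a murine lung adenocarcinoma line, grown in serum-containing DMEM. The 3 control libraries carry the name EtOH in the sample descriptions, and the 3 treated libraries were made after 72 hours of 4-hydroxytamoxifen (4-OHT) at a dose written as 10 nm, which per the labels deletes Lin9. Lin9 encodes a core subunit of MuvB, a complex that binds promoters of cell cycle genes. No RNA-seq group had 4-OHT without the deletion, so effects of 4-OHT itself and of Lin9 loss cannot be told apart. The allele, the recombinase and the number of clones or cultures behind the libraries are given in none of the sources used here. P-values thus reflect the spread between libraries that may be technical replicates.

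Library totals lay between 5859826 and 5913942 reads. Lin9 was counted at 156, 124 and 159 reads in control and at 108, 107 and 101 reads in 4-OHT libraries. Its log2 fold change in edgeR was -0.49 (SE 0.11, adjusted p = 0.0011). A whole-gene count may also hold exons outside a deleted part, so the extent of the deletion cannot be read from it. Of the 10 epithelial and lung markers 6 had enough reads to be tested. The keratin genes Krt8, Krt18 and Krt19 were abundant (Krt8 at 1840.3 ± 12.6 CPM in control, n = 3) and were not called, whereas the adhesion genes Epcam (223.2 ± 2.66 to 171.2 ± 6.76 CPM) and Cdh1 (580.6 ± 18.1 to 527.2 ± 1.67 CPM) were lower after 4-OHT. The alveolar surfactant gene Sftpc had 0 reads in every library. The other markers of that list, Nkx2-1, Sftpb, Hopx and Ager, were either not tested or not called. The 6 leukocyte and endothelial markers summed to between 3.09 and 7.02 CPM in control and to between 3.56 and 6.58 CPM in 4-OHT libraries, with Cd3e at 0. All 10 mitotic markers examined were lower after 4-OHT, and their summed level was 2049.6 to 2133.5 CPM in control against 1015.6 to 1063.6 CPM in 4-OHT libraries. Of 10 G1/S markers, 8 were lower, with a sum of 1573.3 to 1611.5 CPM in control and 1388.3 to 1423.5 CPM after 4-OHT. In DESeq2 10 mitotic and 4 G1/S markers were lower. Over all genes tested, 5.17% were lower and 4.61% higher in edgeR, and 2.87% and 1.43% in DESeq2. Of 3 tested mesenchymal markers 1 was higher, while 2 lay below 0 and were not called (log2 fold changes from -0.36 to 0.15). The sum over all 7 mesenchymal markers listed, tested or not, was 2784.3 to 2830.5 CPM in control and 3071.8 to 3121.3 CPM after 4-OHT. The part of these cell cycle and marker shifts in the results on the envelope was not tested, and in bulk RNA fewer cells expressing a gene and less RNA per cell cannot be told apart.

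After 4-OHT, RNA of the lamina genes Lmnb1, Tmpo, Lbr and Sun2 changed by -10.6% (Lbr) to -23.5% (Sun2), whereas Pom121 was the only pore gene called. Of 25 tested pore IDs, 1 was lower and 0 were higher (4% and 0%), and of 15 tested lamina IDs, 4 were lower and 0 higher (26.7% and 0%). Over all 13355 genes tested, 5.17% were lower and 4.61% higher (quasi-likelihood test of edgeR with Benjamini-Hochberg adjustment over all genes, threshold 0.05; 9.79% in either direction). At an unadjusted p under 0.05, 3 pore IDs were lower and 1 was higher, and 6 lamina IDs were lower and 0 higher, beside 10.5% lower and 10.7% higher over all genes. The share of pore genes called lower was thus close to the background and that of lamina genes above it, although both shares rest on few genes and the difference between the lists was not tested.

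The median log2 fold change was -0.02 over the pore IDs (15 below and 10 above 0) and -0.02 over the lamina IDs (9 below and 6 above), beside 0.00052 over all genes tested. The lamina median moved to -0.0872 without 4-OHT replicate 2, -0.0679 without control replicate 2, -0.0533 without 4-OHT replicate 1 and -0.0503 without control replicate 1, while the pore median lay between -0.0188 and 0.0056 when any 1 library was left out. The CPM values (reads scaled to a common library size by TMM) of the groups did not overlap for 5 of 25 pore IDs and 6 of 15 lamina IDs, against 24.3% of all genes tested. In DESeq2, where 2.87% of genes were lower and 1.43% higher, 3 lamina IDs (Lmnb1, Tmpo and Sun2) and 0 pore IDs were lower, and none was higher. At an unadjusted p under 0.05, DESeq2 gave 1 pore and 5 lamina IDs lower and 0 higher, beside 6.17% lower and 4.99% higher over the 13355 genes.

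Summed over its tested members, the lamina stood at 2609.4 to 2648.4 CPM in control and 2436.0 to 2491.8 CPM in 4-OHT libraries, so the groups did not overlap. Lmna alone made up a large share of that sum. The pore sum was 3394.9 to 3471.1 CPM in control and 3335.0 to 3441.3 CPM in 4-OHT libraries, and there the groups overlapped.

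**Figure D1:**
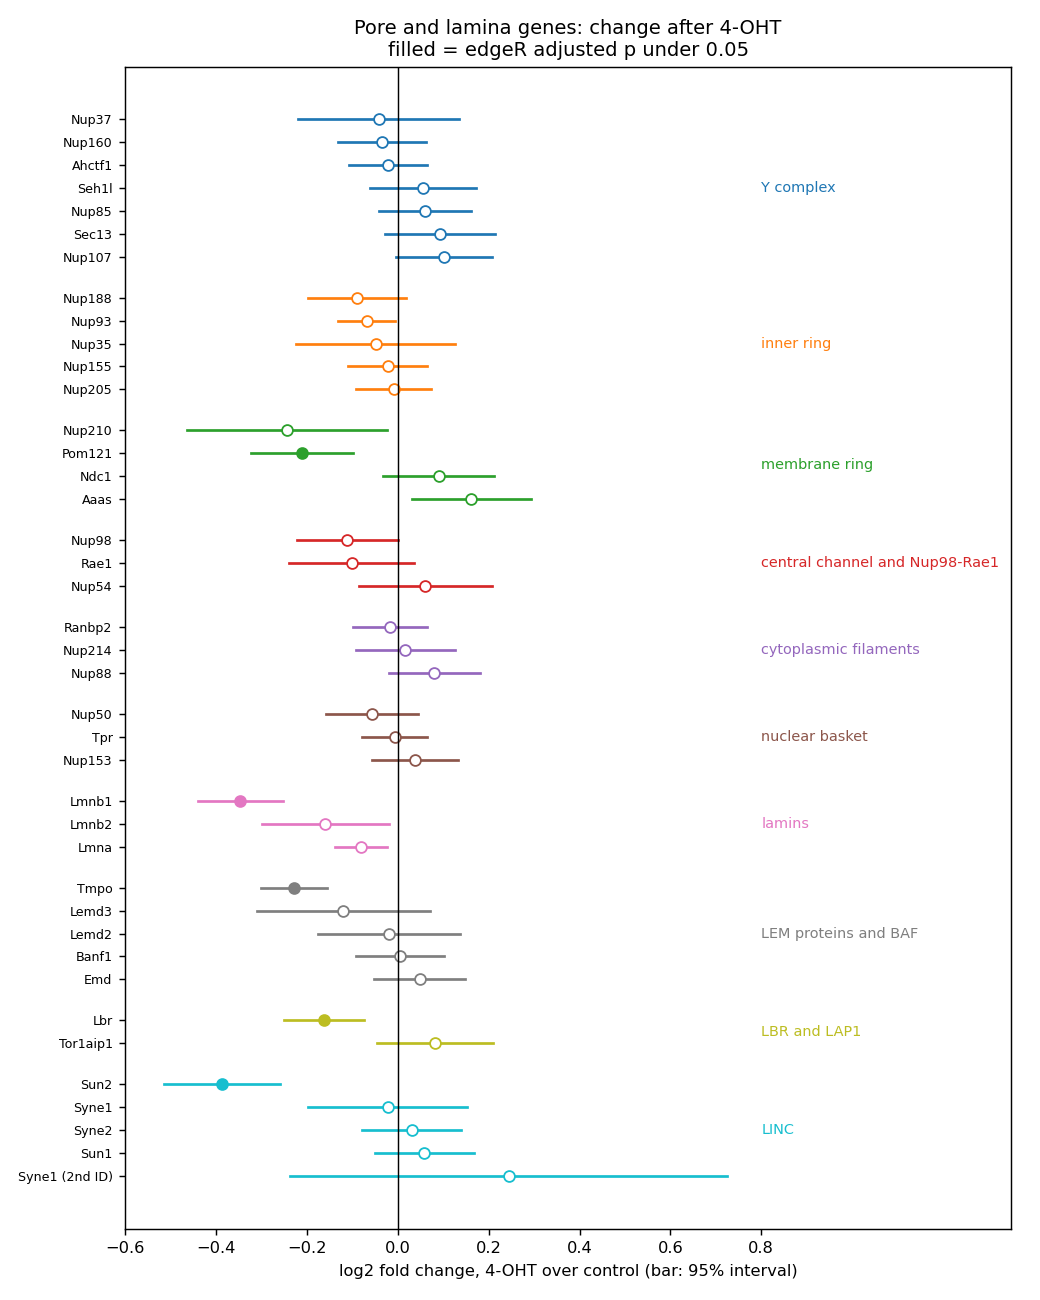
Log2 fold change (4-OHT over control, horizontal axis) of each of the 40 tested gene IDs, ordered by role in the pore or the lamina, with 95% intervals as bars and filled circles for genes past an edgeR adjusted p of 0.05. The 5 filled circles, all left of 0, are Pom121, Lmnb1, Tmpo, Lbr and Sun2.

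The promoters of the called genes are shown because MuvB is known to bind a short promoter element, the cell cycle genes homology region (CHR). RefSeq windows of GRCm38.p6, from 250 bases before to 50 bases from the start, matched 36 of the 42 members by symbol. Lmnb1 was among the 6 without a match. Letters were searched on both strands. For the CHR they were TTTGAA and, as the other accepted form, TTCGAA. The box bound by NF-Y was searched as CCAAT. E2F-like matches were TTCCCGC and the further forms of that site TTTGGCG and, with a different core, TTTCGCG. The TEAD-like letters were GGAATG. The 150 bases before each start are printed 5′ to 3′ on the strand of the gene, with matches in capitals.
Lbr (chr1:181842402-181842551, minus strand): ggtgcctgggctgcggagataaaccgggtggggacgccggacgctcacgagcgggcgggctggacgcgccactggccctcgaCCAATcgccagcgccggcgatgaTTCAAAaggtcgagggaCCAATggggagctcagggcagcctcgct
Sun2 (chr15:79742537-79742686, minus strand): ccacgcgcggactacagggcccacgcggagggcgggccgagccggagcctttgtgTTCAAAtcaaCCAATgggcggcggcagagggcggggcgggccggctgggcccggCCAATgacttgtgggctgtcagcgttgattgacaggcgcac
Pom121 (chr5:135394547-135394696, minus strand): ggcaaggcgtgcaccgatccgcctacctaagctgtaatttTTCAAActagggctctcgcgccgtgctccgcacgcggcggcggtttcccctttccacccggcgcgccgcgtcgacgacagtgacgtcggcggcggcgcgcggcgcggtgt
Tmpo upstream start (chr10:91171620-91171769, minus strand): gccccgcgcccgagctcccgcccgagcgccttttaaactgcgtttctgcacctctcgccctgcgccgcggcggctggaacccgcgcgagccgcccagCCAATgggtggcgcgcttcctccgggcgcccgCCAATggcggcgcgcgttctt
Tmpo downstream start (chr10:91170551-91170700, minus strand): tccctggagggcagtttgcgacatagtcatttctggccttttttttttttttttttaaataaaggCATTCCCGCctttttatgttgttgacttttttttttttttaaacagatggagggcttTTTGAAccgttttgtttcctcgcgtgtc

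Each of the 4 called genes with a window held a CHR hexamer. It began 45 bases before the start in Lbr (TTCAAA, the reverse complement of TTTGAA), 95 bases before in Sun2 and 110 bases before in Pom121, also as TTCAAA, and 28 bases before the downstream start of Tmpo as TTTGAA. Lbr, Sun2 and the upstream start of Tmpo each held CCAAT at 2 places. At the downstream start of Tmpo the E2F-like letters overlap the TEAD-like ones, which are read on the opposite strand as CATTCC. The start of Pom121 and both starts of Tmpo shown lie inside the RefSeq spans of these genes, not at their 5′ ends. Among the tested genes with a window, 43.3% held CCAAT, 14.3% E2F-like and 14.7% TEAD-like letters. CCAAT was held by 3 of the 4 called genes and by 13 of the 30 tested members not called.

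Among tested members that were not called, 5 of 30 with a window (16.7%) held a CHR hexamer, namely Tpr, Ndc1, Sec13, Nup98 and Nup37. Of the 9003 tested genes with a window, 16.3% held one. Over all tested members with a window, called or not, 6 of 22 pore genes and 3 of 12 lamina genes held a CHR hexamer. The 3 lamina genes were the called Lbr, Sun2 and Tmpo, and the pore genes included the called Pom121. In a shorter window, from 100 bases before to 50 from the start, 3 of the 4 called genes kept a hexamer, against 6.65% of the tested genes. A match of these letters is a description and does not show binding.

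Among the lamins, Lmnb1 fell and the values of the others lay below control without passing the test. Lmnb1 encodes lamin B1, a farnesylated lamin that stays attached to the inner membrane (chromosome 18, 56707813 to 56753424 in RefSeq GRCm38.p6). Its level was 152.8, 153.4 and 157.5 CPM in control and 118.5, 122.6 and 123.6 CPM in 4-OHT libraries, so that the log2 fold change in edgeR was -0.35 (SE 0.05, adjusted p = 1.03e-08, 95% interval -0.44 to -0.25). Every 4-OHT library lay below every control library, and the call stood without any 1 of the 6 libraries (adjusted p at most 4.25e-06).

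Lmnb2, which encodes lamin B2, stood at 54.3, 57.7 and 56.2 CPM in control and 50.4, 48.1 and 52.1 CPM in 4-OHT libraries (edgeR: log2 fold change -0.16, SE 0.07, adjusted p = 0.157). Lmna, whose transcripts encode lamins A and C and are not separated in a gene count, stood at 1199.7, 1242.8 and 1222.8 CPM in control and 1124.9, 1185.4 and 1156.6 CPM in 4-OHT libraries (edgeR: log2 fold change -0.08, SE 0.03, adjusted p = 0.060). The groups of neither gene overlapped. The limma-voom test put Lmna past the threshold (adjusted p = 0.029).

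**Figure D2:**
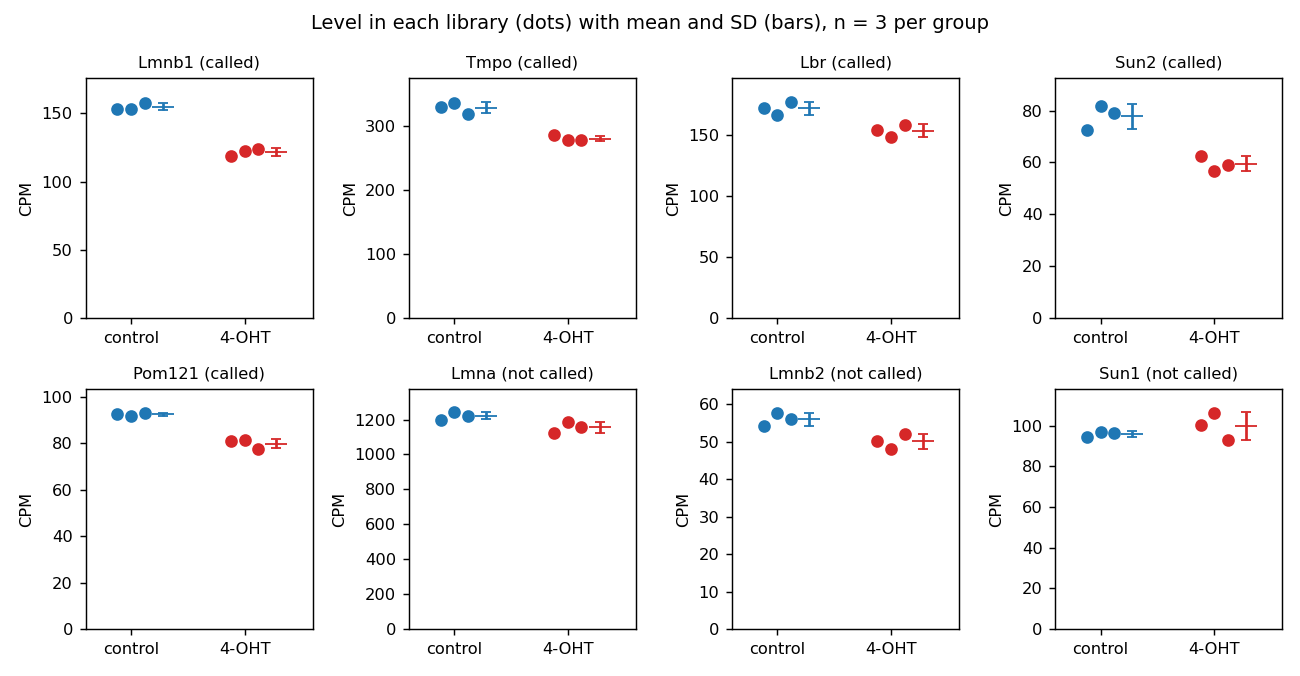
Level in CPM (vertical axis from 0) in each control and 4-OHT library for the 5 called genes and for Lmna, Lmnb2 and Sun1, with dots for libraries and bars for the mean and SD (n = 3 per group). In the 5 called genes every 4-OHT dot lies below every control dot, while the Sun1 groups overlap.

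Of the 5 LEM-domain and BAF genes, 1 was lower and 4 did not pass. Tmpo encodes the lamina-associated polypeptide LAP2 in several isoforms, which the gene count joins. It was read at 328.6, 335.7 and 318.3 CPM in control and 284.5, 277.0 and 277.1 CPM in 4-OHT libraries (edgeR: log2 fold change -0.23, SE 0.04, adjusted p = 9.2e-07, 95% interval -0.30 to -0.16). The 4-OHT values lay below control in all 3 libraries, and no omitted library ended the call.

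Of the other members of that group, Emd and Banf1 were near their control level. Emd, which encodes emerin, the inner membrane protein lost in a form of muscular dystrophy, had a log2 fold change of 0.05 (SE 0.05). Banf1 encodes BAF, the small protein that joins LEM domains to DNA, and its value was 0.0055 (SE 0.05). The inner membrane protein genes Lemd2 (-0.02, SE 0.08) and Lemd3 (-0.12, SE 0.10) had wider errors, as their reads were fewer.

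Lbr encodes the lamin B receptor, a membrane protein that binds heterochromatin and also holds a sterol reductase domain. It stood at 172.0, 165.9 and 176.4 CPM in control and 153.5, 147.9 and 158.2 CPM in 4-OHT libraries (edgeR: log2 fold change -0.16, SE 0.04, adjusted p = 0.0085). Although the groups did not overlap, it missed the threshold in DESeq2 (adjusted p = 0.109), and in edgeR without 4-OHT replicate 2 (0.087) or without control replicate 3 (0.077). Tor1aip1, which encodes LAP1, an activator of torsin ATPases, was not called (log2 fold change 0.08, SE 0.06).

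In the LINC complex, Sun2 fell and its paralogue Sun1 did not pass the test. Both encode inner membrane proteins that reach across the envelope lumen to bind nesprins. Sun2 was counted at 72.4, 81.9 and 79.0 CPM in control and 62.6, 56.8 and 59.1 CPM in 4-OHT libraries (edgeR: log2 fold change -0.39, SE 0.06, adjusted p = 2.48e-06, 95% interval -0.51 to -0.26). This was the largest fall among the 40 tested IDs, with groups well apart, and it stood without any 1 library (adjusted p at most 0.00055).

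Sun1 was counted at 94.3, 97.0 and 96.5 CPM in control and 100.6, 106.3 and 92.8 CPM in 4-OHT libraries, so the groups overlapped (log2 fold change 0.06, SE 0.06). Syne1 and Syne2 encode the giant nesprins of the outer membrane, and neither was called. Syne2 had a log2 fold change of 0.03 (SE 0.05) and the main Syne1 ID of -0.02 (SE 0.09). The other Syne1 ID held only 19 to 29 reads per library and gave 0.24 (SE 0.24), too wide an error to place it.

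Ratios of reads of related genes within each library need no scaling, and 6 pairs were compared. The log2 ratio of Sun1 to Sun2 reads was 0.38, 0.24 and 0.29 in control and 0.68, 0.90 and 0.65 in 4-OHT libraries, a difference of 0.44 (exact permutation test over libraries, two-sided, p = 0.1, adjusted p = 0.2). For Lmnb1 to Lmna the ratio was -2.98 ± 0.03 in control and -3.25 ± 0.02 in 4-OHT libraries, and for Lmnb1 to Lmnb2 it was 1.46 ± 0.05 and 1.28 ± 0.06 (SD, n = 3, both exact permutation p = 0.1, adjusted p = 0.2). These 3 pairs had groups that do not overlap, for which 0.1 is the smallest p that 3 against 3 libraries can give, so no pair could pass a threshold of 0.05.

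For Nup188 to Nup205, 2 related scaffold genes of the inner ring, the difference was -0.08 (exact permutation p = 0.2, adjusted p = 0.3). It was 0.10 for Lemd2 to Lemd3 (p = 0.4, adjusted p = 0.48) and -0.02 for Syne1 to Syne2 (p = 0.8, adjusted p = 0.8), both by the same exact test. The groups of these 3 pairs overlapped. A Nup107 to Nup133 ratio could not be formed because Nup133 was listed at 0.

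**Figure D3:**
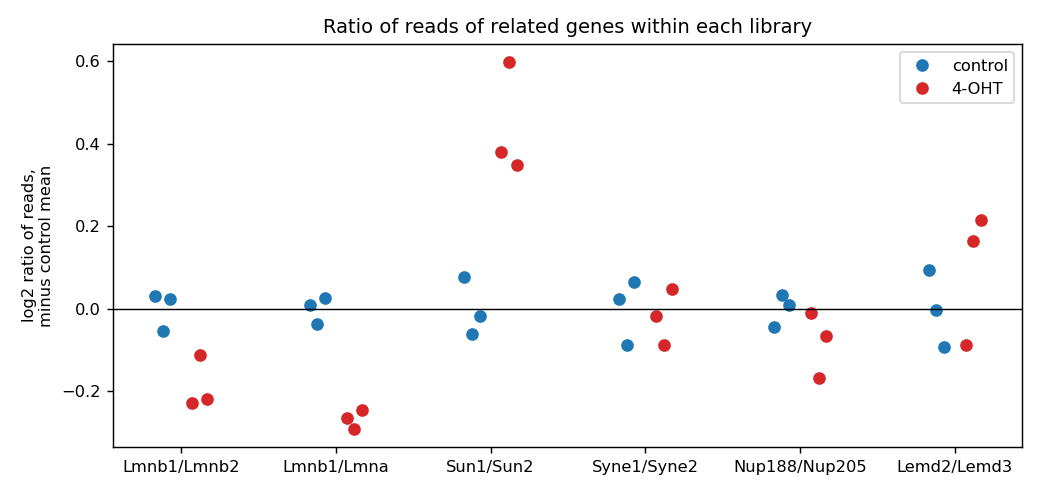
Log2 ratio of reads of 2 related genes in each library, minus the mean of the 3 control libraries (vertical axis), for 6 pairs, with blue dots for control and red dots for 4-OHT libraries. The red dots lie apart from the blue ones for Lmnb1/Lmnb2, Lmnb1/Lmna and Sun1/Sun2 while the ranges overlap for the other 3 pairs.

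The Y-shaped complex builds the outer rings of the pore, and part of it sits at kinetochores in mitosis. None of its 7 tested members was called, at an unadjusted p under 0.05 as well (edgeR and DESeq2), with log2 fold changes between -0.04 (Nup37) and 0.10 (Nup107). Nup107, a stem subunit, was read at 598, 608 and 578 times in control and 637, 614 and 688 times in 4-OHT libraries, and the groups overlapped after scaling. Ahctf1 encodes ELYS, the subunit that brings new pores to chromatin after mitosis, and had a log2 fold change of -0.02 (SE 0.04). Sec13, also a subunit of the COPII coat, and Seh1l, also part of the GATOR complex, gave 0.09 (SE 0.06) and 0.06 (SE 0.06). Nup85 and Nup160, also of this complex, gave 0.06 and -0.03.

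The inner ring anchors the channel to the membrane. All 5 of its members had values below 0, from -0.09 (Nup188) to -0.0092 (Nup205), beside a median of 0.00052 over all genes tested. Their shared sign was not tested, and no single member passed the threshold. Nup93, which links the ring to the channel, came nearest: it stood at 659.3, 614.3 and 640.5 CPM in control and 606.0, 613.2 and 606.4 CPM in 4-OHT libraries. Its groups did not overlap (edgeR: log2 fold change -0.07, SE 0.03, adjusted p = 0.185). Nup35 and Nup155, which contact the membrane, gave -0.05 and -0.02.

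In the membrane ring, which fixes the pore in the envelope, 1 of 4 members was called. Pom121 encodes a transmembrane nucleoporin needed to insert new pores. It stood at 92.6, 91.9 and 93.2 CPM in control and 81.1, 81.3 and 77.6 CPM in 4-OHT libraries (edgeR: log2 fold change -0.21, SE 0.06, adjusted p = 0.0066). All 4-OHT values lay below control, and the call stood without any 1 library (adjusted p at most 0.036) but was lost in DESeq2 (0.113).

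Pom121 shares 666 bases of its span with Nsun5, and reads there could be given to either gene. Nsun5, an RNA methyltransferase gene named after its value was seen, had a log2 fold change of -0.02 (SE 0.12). The transmembrane nucleoporin genes Nup210 (-0.24, SE 0.11, edgeR adjusted p = 0.176) and Ndc1 (0.09, SE 0.06) were not called. Aaas encodes ALADIN, which is held at the pore by NDC1 and is mutated in triple A syndrome. It stood at 56.0, 62.5 and 58.3 CPM in control and 65.6, 69.3 and 62.8 CPM in 4-OHT libraries, with no overlap, and missed the threshold (edgeR: log2 fold change 0.16, SE 0.07, adjusted p = 0.116).

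The channel, the filaments and the basket showed no call among 9 tested genes, and none at an unadjusted p under 0.05 in edgeR or DESeq2. Nup54, a channel nucleoporin with FG repeats, gave 0.06 (SE 0.07). Nup98, an FG nucleoporin whose transcript also encodes a Y complex subunit, gave -0.11 (SE 0.06) with groups that did not overlap, and its mRNA export partner Rae1 gave -0.10 (SE 0.07).

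On the cytoplasmic side, where cargo leaves the pore, Ranbp2 gave -0.02, Nup214 0.02 and Nup88 0.08 on the log2 scale (SE 0.04 to 0.06). In the basket, which docks transport complexes and the spindle checkpoint protein MAD1, Tpr gave -0.0063, Nup50 -0.06 and Nup153 0.04 (SE 0.04 to 0.05). The groups overlapped for all of these but Nup88, whose 4-OHT libraries (115.8, 116.6 and 119.3 CPM) lay just above control (108.5, 108.5 and 115.5 CPM).

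The errors bound how far the genes that missed the threshold could have moved in these libraries. All 24 pore genes not called had a 95% interval wholly within a 1.5-fold change either way. The lowest bound was that of Nup210, with an interval of -0.46 to -0.02 on the log2 scale and only 113 to 155 reads per library, and the highest that of Aaas (0.29). Of the 11 lamina IDs not called, 10 lay within 1.5-fold and the exception was the Syne1 ID with few reads (-0.24 to 0.72).

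For Nup43, Nup62 and Nup133 no level can be given. They encode subunits of the Y complex and, in the case of Nup62, the central channel, which every nucleated cell uses. The whole RefSeq span of Nup43 (chromosome 10, 7667504 to 7678886) lies within that of Pcmt1, and 15467 of the 15749 bases of Nup62 (chromosome 7) lie within Il4i1b, whereas Nup133 (chromosome 8) overlaps only lncRNA genes. Of 77 ribosomal protein genes, 5 were listed at 0, namely Rpl13, Rpl35, Rpl35a and the paralogue genes Rpl10l and Rpl39l, all named after their values were seen. A count of 0 would allow up to 3 reads, 0.51 CPM, by counting error alone, which does not hold for reads that were never assigned to the gene.

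Further genes of the same structures were examined as lists, whose counts stand beside 5.17% lower and 4.61% higher over all genes. Of 10 further pore genes, 0 were called in edgeR or DESeq2. With an unadjusted p under 0.05 edgeR gave 1 higher and DESeq2 gave 0, beside 10.7% and 4.99% of all genes higher. Of 16 tested further lamina and envelope genes, 2 were lower (12.5%) and 1 higher (6.25%). Ankle1, which encodes a LEM-domain nuclease, fell from 14.7, 18.0 and 17.8 CPM to 6.44, 6.07 and 9.33 CPM (edgeR: log2 fold change -1.21, SE 0.16, adjusted p = 1.7e-09). Tmem201 (SAMP1, an inner membrane partner of LINC; -0.25, SE 0.07) was called lower and Tmem43 (LUMA, an emerin partner; 0.19, SE 0.06) higher. Both calls were lost in DESeq2 (adjusted p = 0.193 and 0.293) and without at least 1 library (edgeR adjusted p up to 0.116 and 0.165).

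Among 31 tested genes of the Ran system and its transport receptors, which carry cargo through the pore, 6 were lower (19.4%) and 1 was higher (3.23%), against 5.17% and 4.61% of all genes. Kpna2, an importin alpha gene, fell from 242.5, 238.0 and 241.3 CPM to 134.1, 143.7 and 137.3 CPM (edgeR: log2 fold change -0.80, SE 0.04, adjusted p = 8.24e-29). Another importin alpha gene, Kpna4, rose from 190.5 ± 5.04 to 216.6 ± 4.51 CPM (edgeR: log2 fold change 0.18, SE 0.04, adjusted p = 0.00066). Rangap1, which encodes the activator of the Ran GTPase (-0.18, SE 0.04), and the import receptor gene Ipo7 (-0.17, SE 0.04) fell.

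The remaining falls were those of Xpot (-0.20), Ran (-0.12) and Tnpo2 (-0.17), whose names were chosen after seeing their values. None of them passed in DESeq2 (adjusted p 0.063, 0.090 and 0.276), and each was lost without at least 1 library (edgeR adjusted p up to 0.070, 0.148 and 0.197). No call was made for Kpnb1, the importin beta gene, or Xpo1, the main export receptor gene, both also named after their values were seen.

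Of 13 genes tied to envelope breakdown and reassembly, 4 were lower (30.8%, against 5.17% of all genes) and 0 higher. These were the mitotic kinase gene Cdk1 and its cyclin gene Ccnb1, which are also in the mitotic marker list, Nek2 (-0.43, SE 0.06) and Cbx5 (-0.12, SE 0.03), which encodes a heterochromatin protein that binds LBR. With an unadjusted p under 0.05, edgeR and DESeq2 each gave 4 lower and 0 higher. Over all genes that threshold gave 10.5% lower and 10.7% higher in edgeR, and 6.17% and 4.99% in DESeq2. Cbx5 was lost in DESeq2 (adjusted p = 0.054) and without at least 1 library (edgeR adjusted p up to 0.148).

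**Figure D4:**
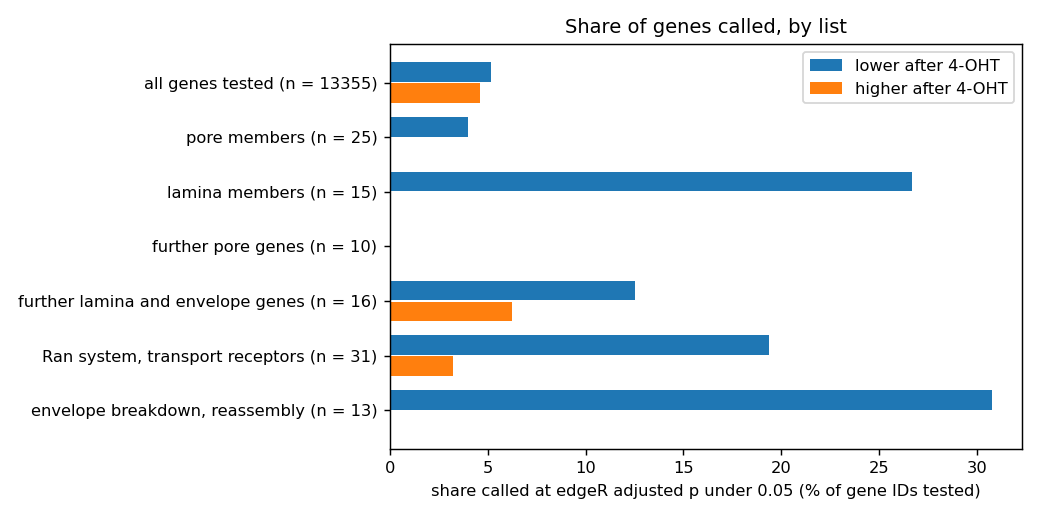
Share of tested gene IDs (horizontal axis, percent) called lower (blue) or higher (orange) after 4-OHT at an edgeR adjusted p under 0.05, for all genes and for each list, with the number tested in brackets. The pore members lie at 4% lower beside 5.17% of all genes, and the lamina members at 26.7% lower on 15 IDs.

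The authors' deposited table, from their own fit, lists 40 of the 43 member IDs. At an FDR under 0.05, the authors' deposited table gives 5 members lower and 0 higher. In the authors' deposited table the log2 fold changes of these are -0.39 for Sun2, -0.35 for Lmnb1, -0.23 for Tmpo, -0.21 for Pom121 and -0.17 for Lbr. The share called over all 17483 IDs of the authors' deposited table was not computed. The counts of 5 and 0 thus stand without a background.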

How the data were processed

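The 6 RNA-seq libraries of the 33 samples were used; ChIP-seq (27 samples) was not analysed here. Libraries, per the labels, were made from polyadenylated RNA with an NEBNext Ultra kit. The deposited matrix holds raw read counts per Ensembl gene. The authors' comparison table holds log2 values (fold change and mean CPM), p-values and FDR, per the file headers. The submitters' processing notes list, without roles, bedtools 2.26.0, TopHat2 2.1.0, edgeR, Bowtie2 and Bowtie 1.1.2, with the builds hg19, GRCh37, mm10 and GRCm38.p6. Which program counted reads, and whether by strand, is not given in the sources used here, so reads of overlapping genes cannot be told apart.

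Of 38951 lines, 27 repeats of 12 IDs were dropped. Counts were filtered with filterByExpr (minimum count 10, total 15), which kept 13355 genes, scaled by TMM and tested in R 4.3.3 with edgeR 4.0.16 (robust quasi-likelihood F test, two-sided, Benjamini-Hochberg over all genes). CPM values use TMM-scaled totals, and intervals are the fold change plus or minus the t quantile of the fit times its SE. Chi-square over degrees of freedom was 1.23 to 1.42 for library pairs of 1 group and 2.66 to 2.96 across groups, so no library was a repeat of another within sampling noise. This does not tell separate cultures from technical replicates. The common biological coefficient of variation in edgeR was 2.58%. Counts were simulated for 13212 genes at 1 common dispersion, and the changed genes were drawn from those with a mean of at least 20 reads. Of 50 genes raised by 25% or lowered by 20%, 62% were recovered, and of 50 changed 1.5-fold, 90%. In genes drawn from a mean of 20 reads upward, a fall of 20% can thus be missed. Recovery at the read depth of the members was not computed. Smaller falls, such as those of Lbr, Pom121 and Tmpo, were not simulated. Among 13012 unchanged genes there were 8 calls.

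The members and lists were chosen with earlier results of these data known. All members were accounted for. Of other lists, called members were named, at most 4 by smallest p. Alternatives were RLE factors, library totals, no filter, a filter of CPM of at least 1 in 3 libraries, DESeq2 1.42.0, limma-voom (limma 3.58.1), a replicate block and leaving out each library.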

Additional observations from a re-analysis of the deposited data

How the results depend on the processing

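The counts of pore genes called (1 lower, 0 higher) and of lamina IDs called higher (0) were the same under other scalings, both other filters, limma-voom, a replicate block and without any 1 library. In DESeq2 the pore count was 0 lower, with 350 genes lower and 174 higher over the table. The count of lamina IDs lower lay between 3 and 5 under the alternatives. Over all genes, 508 to 643 were lower and 403 to 542 higher when 1 library was left out, with 403 higher without control replicate 1. The lamina median was -0.0679 without control replicate 2 and -0.0872 without 4-OHT replicate 2, and ranged from -0.0872 to -0.0191 when 1 library was left out (pore: -0.0188 to 0.0056). With the window of 100 bases, 2 pore genes held a CHR hexamer. The cause of these differences was not tested, and the shorter window holds fewer bases. Replicate numbers did not pair the samples (correlation of deviations -0.06 to 0.04 for equal numbers). With a replicate block 665 genes were lower and 579 higher, and 4 lamina IDs and 1 pore ID were lower. Not every sample correlated best with its own number. Genes with few reads, such as Nup210 and the second Syne1 ID, had the widest intervals.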
